A study of Mus musculus with 3 samples.

Results

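The proteasome genes described here are those whose name on the array begins with Psma, Psmb, Psmc, Psmd, Psme, Psmf or Psmg, without the 3 interferon-inducible subunits Psmb8, Psmb9 and Psmb10. The gene set was chosen with earlier results of these data known. Its rule used names alone and no measured value, and it found 46 of 30141 gene names and 59 of 39429 probes. Of these, 44 genes with 57 probes gave a signal above background and were tested, among 21039 genes and 27630 probes in all. Psma8, the alpha subunit of the testis, and Psmb11, the beta subunit of the thymus, were not well above background on all arrays in either dye. The names also caught Psmc3ip, a meiotic recombination factor that is not a proteasome subunit, and Psme2b, a copy of the gene for PA28 beta; no probe was named Psme2, and 2 of the 3 Psme2b probes list accessions of Psme2 as well.

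The proteasome degrades proteins that carry ubiquitin chains. Its core particle is a barrel of alpha and beta rings with the proteolytic sites inside, and its regulatory particle has a base of ATPases that unfold the substrate and a lid that removes the ubiquitin. Dedicated chaperones assemble both particles, and alternative activators can cap the core in place of the regulatory particle. In hippocampal neurons proteasomal degradation takes part in synaptic plasticity and in the turnover of synaptic proteins.

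RNA came from the hippocampus of male mice killed at 120 days of age. The mothers were either 15 to 18 months old at breeding (advanced maternal age) or 3 months old (the control), and all fathers were virgin males of 3 months. The strain, the number of litters and how pups were spread over pools are not given in the sources used here. Each group had 3 pools, described as biological replicates, and a pool joined equal amounts of RNA from 3 males. Each of 3 two-colour Agilent arrays held 1 pool of either group, with the older-mother pool in Cy3 and the young-mother pool in Cy5 every time, so an effect of the dye and an effect of the mother's age cannot be told apart. All values are log2 ratios of older over young mothers as deposited, so 0.30 means 1.23-fold higher in the older-mother pools, and errors are the SD over the arrays.

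Median Cy3 signals were 54 to 58.5 units over background and median Cy5 signals 141 to 152, and no spot was saturated. All 11 hippocampal neuron markers were above background, and their median ratio was -0.076. Of these, 2 passed the test higher in the older-mother pools and 3 lower, where 7.14% and 10.2% of all genes did. Of 5 endothelial markers 1 passed higher and 2 lower, and of 6 microglial markers 1 passed each way. Of 5 astrocyte markers 1 passed higher, and of 5 oligodendrocyte markers 0 passed. Choroid plexus markers were lower in the older-mother pools on every array for 10 of 10 genes, where 34.1% of all genes were. Their list medians were -0.86, -2.04 and -0.37 on arrays 1 to 3, and 3 of the 10 passed the test. Of 7 leptomeningeal markers 6 passed in the same direction (list medians -0.40, -0.51 and -0.30). All these marker lists were chosen with earlier results of these data known, so their counts are no independent evidence. The part of choroid plexus and leptomeninges in the values below was not tested. In these bulk samples fewer cells of a type and less RNA per cell cannot be told apart.

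Probe sequences are printed for 6 of the genes whose probe passed the test or whose probes disagreed with each other, because each value is a measurement of 60 bases and not of the whole transcript. They are given 5′ to 3′ as in the array files, whose headers name the build mm9, and are printed here in lower case. For Psme3 only bases 22 to 51 are given, with runs of alternating T and G in capitals.
Psmd11, a lid subunit, chr11:80283406-80283920 on the plus strand across an intron: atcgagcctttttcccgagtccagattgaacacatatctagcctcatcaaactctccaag
Psmb5, second probe, chr14:55233161-55233220 on the minus strand: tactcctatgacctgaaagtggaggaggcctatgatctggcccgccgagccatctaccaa
Psma4, brightest probe, chr9:54804685-54805444 on the plus strand across an intron: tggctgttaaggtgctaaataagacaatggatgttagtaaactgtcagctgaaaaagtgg
Psma4, second probe, chr9:54802741-54804087 on the plus strand across an intron: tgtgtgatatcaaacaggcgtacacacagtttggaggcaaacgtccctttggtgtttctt
Psmd9, brightest probe, chr5:123691881-123691940 on the plus strand: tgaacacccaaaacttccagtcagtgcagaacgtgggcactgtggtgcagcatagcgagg
Psme4, second probe, chr11:30710953-30711012 on the plus strand: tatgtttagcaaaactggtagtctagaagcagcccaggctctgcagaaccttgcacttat
Psme3, chr11:101184289-101184348 on the plus strand: acaTGTGTGTGTGTGTtcGTGTGTGTGTGT

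Most proteasome genes differed little between the groups. Taking the brightest probe of each gene, 3 of 44 passed limma's test higher in the older-mother pools (6.82%) and 2 lower (4.55%). Over all genes tested 7.14% passed higher and 10.2% lower, or 17.3% in either direction against 5 of 44 proteasome genes (11.4%). The share that rose was near that background. The 3 that rose were the lid subunits Psmd7 and Psmd11 and the activator Psme4, and the 2 that fell were the activator Psme3 and the base chaperone Psmd9. The median ratio of the 44 genes was 0.036, against -0.023 over all genes, and their median absolute ratio was 0.080, against 0.11. On all 3 arrays 19 of the 44 were above 0 and 12 below 0, where 25.2% and 34.1% of all genes were. Spread over arrays was small, with a median SD of 0.051 against 0.087 over all genes. The 44 genes were also brighter, with a median intensity percentile of 86.7 against 54.5 over all genes. The part of intensity in the smaller ratios and spread was not tested.

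**Figure D1:**
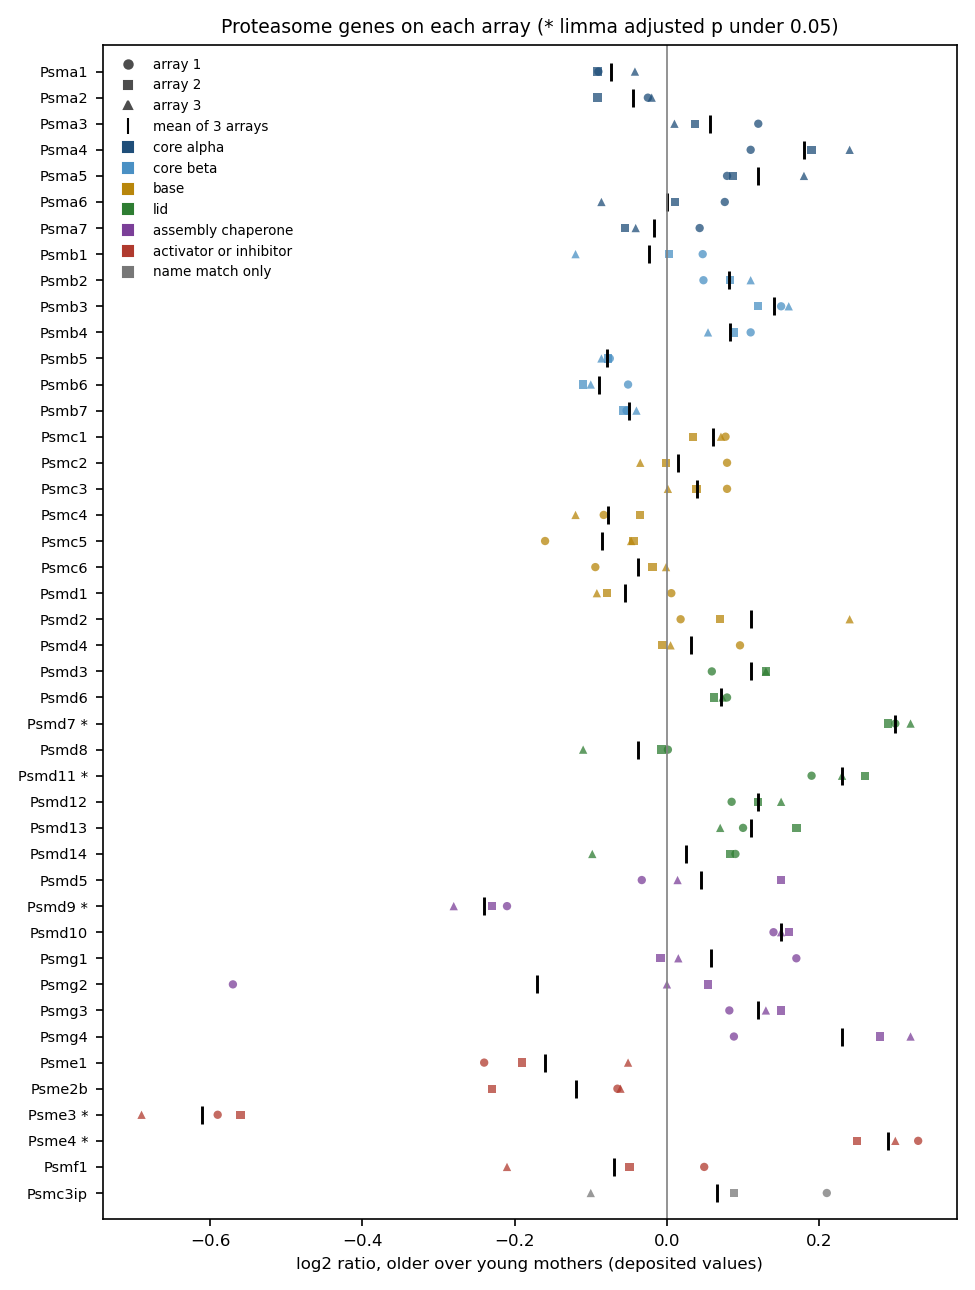
Log2 ratio of older over young mothers (x axis) for each of the 44 tested genes (y axis) on array 1 (circle), array 2 (square) and array 3 (triangle), with the mean of the 3 arrays as a black line and colours for the groups of subunits. Psme3 lies far to the left at -0.61, Psmd7, Psme4, Psmd11 and Psmg4 lie to the right at 0.23 to 0.30, and the core and base genes lie between -0.089 and 0.18.

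None of the 14 core particle genes passed the main test by its brightest probe, with limma adjusted p between 0.0616 and 0.996. Psma4 and Psmb3 passed higher in some of the alternatives given at the end, and the second Psmb5 probe passed higher in the main test. Their median ratio was -0.0085, with medians of 0.048, 0.0072 and -0.030 on the 3 arrays, and as many genes had a mean above 0 (7) as below (7). The 95% intervals of all 14 lay within -0.20 and 0.30.

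In the alpha ring, whose subunits form the gate of the barrel, 7 genes had a median of 0.0005. Psma4 was the highest core gene, at 0.11, 0.19 and 0.24 on arrays 1 to 3. Every array had it above 0, and its mean of 0.18 ± 0.065 (SD, n = 3) did not pass (limma adjusted p = 0.0616). Psma1 was the lowest alpha gene, at -0.090, -0.091 and -0.042. All 3 values lay below 0 and the mean was -0.074 ± 0.028 (SD, n = 3; limma adjusted p = 0.284). Psma6, with values of 0.076, 0.011 and -0.086 that straddled 0, had a mean of 0.0005 ± 0.081 (SD, n = 3).

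The beta ring carries the active sites, and its 7 genes had a median of -0.024. The brightest probe of Psmb5, the chymotrypsin-like subunit, read -0.075, -0.077 and -0.086. The 3 arrays differed by little here, and the mean was -0.079 ± 0.0062 (SD, n = 3; limma adjusted p = 0.246). Psmb6, the caspase-like subunit and the lowest core gene, read -0.051, -0.11 and -0.10. Its mean was -0.089 ± 0.034 (SD, n = 3; limma adjusted p = 0.215), again below 0 on every array. Psmb7, the trypsin-like subunit, read -0.053, -0.057 and -0.040, with a mean of -0.050 ± 0.0088 (SD, n = 3; limma adjusted p = 0.449). All 3 catalytic subunits were thus below 0 on all arrays by their brightest probe, at sizes that did not pass. Over all genes 34.1% were below 0 on all arrays. The second Psmb5 probe, described below, was above 0 on every array. Psmb3, a structural beta subunit, stood at the other end with 0.15, 0.12 and 0.16. Its mean was 0.14 ± 0.021 (SD, n = 3; limma adjusted p = 0.0828).

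The base holds 6 ATPases (Psmc1 to Psmc6), the scaffolds Psmd1 and Psmd2 and the ubiquitin receptor Psmd4. None of these 9 genes passed the test (limma adjusted p 0.237 to 0.855), and the median over them was 0.014, or 0.018, -0.0057 and -0.0011 on the single arrays. The 95% intervals lay within -0.21 and 0.26. Psmd2, a scaffold and docking site for ubiquitin shuttles, was the highest at 0.018, 0.070 and 0.24. Array 3 was far above the other two, and the mean was 0.11 ± 0.12 (SD, n = 3; limma adjusted p = 0.237). The ATPase gene Psmc5 was the lowest at -0.16, -0.044 and -0.047, with array 1 apart from the others and a mean of -0.085 ± 0.068 (SD, n = 3; limma adjusted p = 0.27). The other 5 ATPase genes had means between -0.078 for Psmc4 and 0.061 for Psmc1.

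The lid held 2 of the 3 genes that rose, or 2 of its 8 genes, where 7.14% of all genes passed higher. Psmd7 (Rpn8), which pairs with the deubiquitinase of the lid, read 0.30, 0.29 and 0.32 on arrays 1 to 3. The arrays hardly differed, and the mean of 0.30 ± 0.018 (SD, n = 3), with a 95% interval of 0.19 to 0.42, passed with a limma adjusted p of 0.0204. Psmd11 (Rpn6), a subunit that clamps the lid to the core, read 0.19, 0.26 and 0.23. It was above 0 on every array at about the same size, with a mean of 0.23 ± 0.036 (SD, n = 3; 1.17-fold; limma adjusted p = 0.0332). Each is represented by a single probe. Psmd7 had an adjusted p of 0.0305 without array 1, 0.0833 without array 2 and 0.067 without array 3, and Psmd11 had 0.0467, 0.184 and 0.0952 in the same order, from limma. By the scanner software's own log ratio Psmd11 was at 0.25 and missed the threshold (limma adjusted p = 0.0531). With 2 arrays the share of all genes called fell too, to 15.2%, 3.16% and 0.356%.

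The other 6 lid genes did not pass. Psmd12, Psmd3 and Psmd13, subunits that build the frame of the lid, had means of 0.12, 0.11 and 0.11 and limma adjusted p of 0.123, 0.161 and 0.149. Psmd6 had a mean of 0.071, with 0.079, 0.062 and 0.073 on the arrays. The deubiquitinase Psmd14 read 0.090, 0.083 and -0.098, and its sign was not the same on every array. Psmd8 was the lowest lid gene at 0.0013, -0.0070 and -0.11, with a mean of -0.038 ± 0.061 (SD, n = 3; limma adjusted p = 0.603). In all, 6 of 8 lid genes were above 0 on every array, where 25.2% of all genes were. A mean above 0 was found for 7 of 8, where 9310 of all 21039 genes had one. The median over the lid was 0.11, or 0.088, 0.13 and 0.10 on the single arrays.

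Set side by side, the lid median lay above those of the core and the base on each array. Core minus lid was -0.040, -0.12 and -0.13 on arrays 1 to 3 (SD of these 0.049, n = 3), and -0.12 from the medians of the genes' means. Base minus lid was -0.069, -0.13 and -0.10 (SD 0.031, n = 3), and -0.095 from the medians of the means. Core minus base changed sign between arrays, with 0.029, 0.013 and -0.029 (SD 0.030, n = 3). It was above 0 on 2 arrays and below 0 on 1, while the medians of the means gave -0.023, so no direction can be given. Alpha ring minus beta ring was 0.029, 0.0086 and 0.020. These are differences between 8, 9 and 14 genes measured on the same 3 arrays. They are given as descriptions, without a test. Core minus lid was -0.065 without array 3 and -0.078 when the probes of a gene were averaged. With averaged probes the core median was 0.027 and core minus base 0.0058, both with the sign turned.

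**Figure D2:**
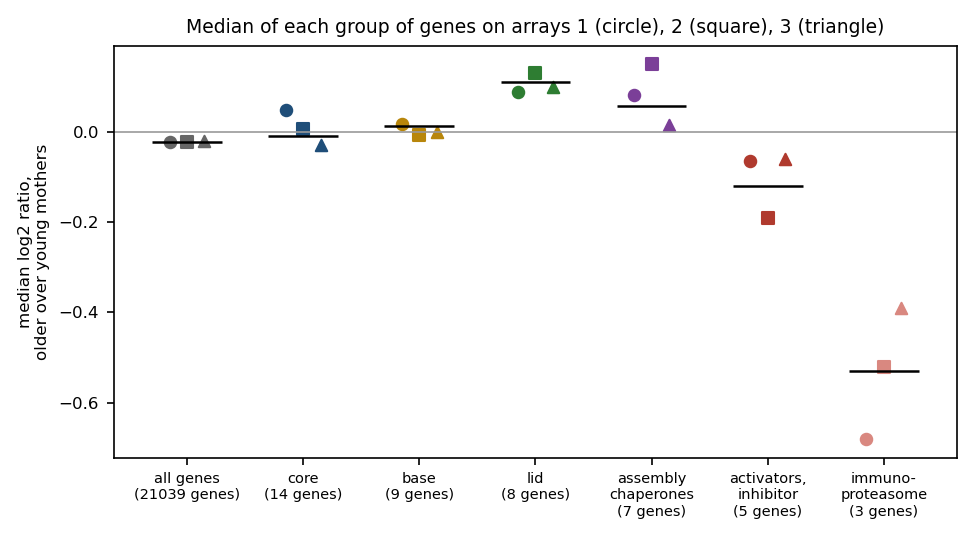
Median log2 ratio of older over young mothers (y axis) in each group of genes (x axis, with the number of genes) on array 1 (circle), array 2 (square) and array 3 (triangle); the line is the median of the genes' means. The lid medians lie at 0.088 to 0.13, the core and base medians at -0.030 to 0.048, and the immunoproteasome medians at -0.68 to -0.39.

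Of 7 assembly chaperones 1 passed, in the lower direction, where 10.2% of all genes did, and the group median was 0.058. Psmd9 (p27), which helps to place ATPases in the base, read -0.21, -0.23 and -0.28 by its brightest probe. The values were alike on the 3 arrays, and the mean was -0.24 ± 0.038 (SD, n = 3; limma adjusted p = 0.03). Its other probe, of nearly equal brightness, read -0.26, 0.087 and 0.12. The probes thus had the same sign on array 1 alone, and the second had a mean of -0.016 ± 0.21 (SD, n = 3; limma adjusted p = 0.908). Averaged over both probes Psmd9 was at -0.13 and did not pass (limma adjusted p = 0.143), and without arrays 1, 2 and 3 in turn its brightest probe had adjusted p of 0.0445, 0.135 and 0.0955. By the scanner software's log ratio it was at -0.24 and missed the threshold (limma adjusted p = 0.0531).

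Gankyrin (Psmd10), another base chaperone, read 0.14, 0.16 and 0.15, with a mean of 0.15 ± 0.013 (SD, n = 3; limma adjusted p = 0.0694). Psmg4 (PAC4), one of the chaperones that build the alpha ring, read 0.088, 0.28 and 0.32. Array 1 lay below the other two, and the mean of 0.23 ± 0.12 (SD, n = 3) did not pass (limma adjusted p = 0.0582), but without array 1 it did at 0.30 (limma adjusted p = 0.0329). Psmg2 (PAC2) read -0.57, 0.054 and 3e-05, so its mean of -0.17 ± 0.35 (SD, n = 3) rested on array 1 and was 0.027 without it. Psmg3 had a mean of 0.12 (limma adjusted p = 0.119), Psmg1 of 0.058 and Psmd5 of 0.045.

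Of the activators that cap the core without the base and lid, Psme3 was called lower and Psme4 higher, and the others did not pass. Psme3 (PA28 gamma), the nuclear activator, had the largest difference of the 44 genes, at -0.59, -0.56 and -0.69 on arrays 1 to 3. All 3 values were far below 0, and the mean of -0.61 ± 0.069 (SD, n = 3), 1.53-fold lower in the older-mother pools with a 95% interval of -0.74 to -0.49, passed with a limma adjusted p of 0.0127. Without array 3 the adjusted p was 0.0518, and without arrays 1 and 2 it was 0.0148 and 0.012. Psme4 (PA200), another nuclear activator, read 0.33, 0.25 and 0.30 with its brightest probe. It was higher on every array, with a mean of 0.29 ± 0.042 (SD, n = 3; limma adjusted p = 0.0217). Its second probe read 0.36, 0.44 and 0.22, also above 0 throughout, and had a mean of 0.34 ± 0.11 (SD, n = 3; limma adjusted p = 0.0246). Without arrays 1, 2 and 3 in turn the adjusted p of the brightest Psme4 probe was 0.0378, 0.0793 and 0.0701, and that of the second 0.0426, 0.104 and 0.0538.

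The interferon-inducible activator subunits did not pass. Psme1 (PA28 alpha) read -0.24, -0.19 and -0.051, below 0 on every array, with a mean of -0.16 ± 0.095 (SD, n = 3; limma adjusted p = 0.102). The brightest Psme2b probe read -0.065, -0.23 and -0.061, with a mean of -0.12 ± 0.097 (SD, n = 3; limma adjusted p = 0.181). The third and dimmest Psme2b probe had a mean of 0.14, on the other side of 0, and which of Psme2 and Psme2b these probes read cannot be told apart. Psmf1 (PI31), which inhibits the core in vitro, read 0.049, -0.049 and -0.21, with a mean of -0.070 ± 0.13 (SD, n = 3; limma adjusted p = 0.457). Psmc3ip, the name match that is no subunit, read 0.21, 0.088 and -0.10.

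The single Psme3 probe holds a run of 13 bases of alternating T and G, shown in capitals above, followed after 2 other bases by a further run. This feature was looked at after the sequence was seen, so all probes were grouped by their longest such run. Of 26335 tested probes with a run under 6 bases, 8.75% were called lower and 7.18% higher, with a median ratio of -0.018. Of 72 probes with a run of 10 to 13 bases, 41 were called lower and 1 higher, with a median of -0.29 and array medians of -0.29, -0.26 and -0.35. Of 84 probes with longer runs, 80 were called lower (95.2%) and 0 higher at a median of -0.44. Runs of C and A showed no such rise in lower calls, which were 3 of 38 at 10 to 13 bases and 1 of 41 beyond. Psme3 at -0.61 was thus measured by a probe of a kind that read lower across other genes, and the part of the run in its value was not tested. Psma5 has the next longest run among these genes, 10 bases, and read 0.12. Of the other tested proteasome probes, only the second Psma4 probe has one of 6 or more.

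Where a gene had several probes, they did not always give one value. Of 12 such genes, 7 had a probe difference of 1 sign on all arrays, 4 had means on opposite sides of 0, and the brightest probe was the lower one in 9. The median absolute difference between the brightest and dimmest probe was 0.089, against 0.12 over 5215 genes with several tested probes. Psmb5 was one of those on opposite sides of 0. Its second probe, 2.03 log2 units dimmer, read 0.16, 0.20 and 0.19, with a mean of 0.19 ± 0.022 (SD, n = 3; limma adjusted p = 0.0469), while the brightest probe read below 0 on each array. Brightest minus second was -0.24, -0.28 and -0.28, larger than the spread between arrays, so no direction can be given for Psmb5. The call of the second Psmb5 probe was lost without any one array, with limma adjusted p of 0.0713, 0.247 and 0.129 without arrays 1, 2 and 3. It was also lost by the scanner software's log ratio (0.115), with an offset of 16 (0.0706) and without the filter (0.0606). Over all 57 probes 7 were called (12.3%, against 16.6% of all probes), 5 of them higher and 2 lower, where 6.96% and 9.65% of all probes were.

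For Psma4 the brightest probe read 0.18 on average and the second 0.011, -0.019 and -0.035, a mean of -0.014 ± 0.023 (SD, n = 3). For Psmd10 the brightest probe read 0.15 and the second -0.15, -0.011 and -0.10, a mean of -0.088 ± 0.072 (SD, n = 3). The differences between these probes had 1 sign on every array, at 0.19 ± 0.089 and 0.24 ± 0.059 (SD, n = 3). The ATPase genes Psmc1, Psmc2 and Psmc3 had pairs that lay closer together, with brightest minus second at -0.095, -0.014 and -0.045. The second Psmc1 probe had a mean of 0.16 (limma adjusted p = 0.0677), so that the pair kept one sign without passing.

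**Figure D3:**
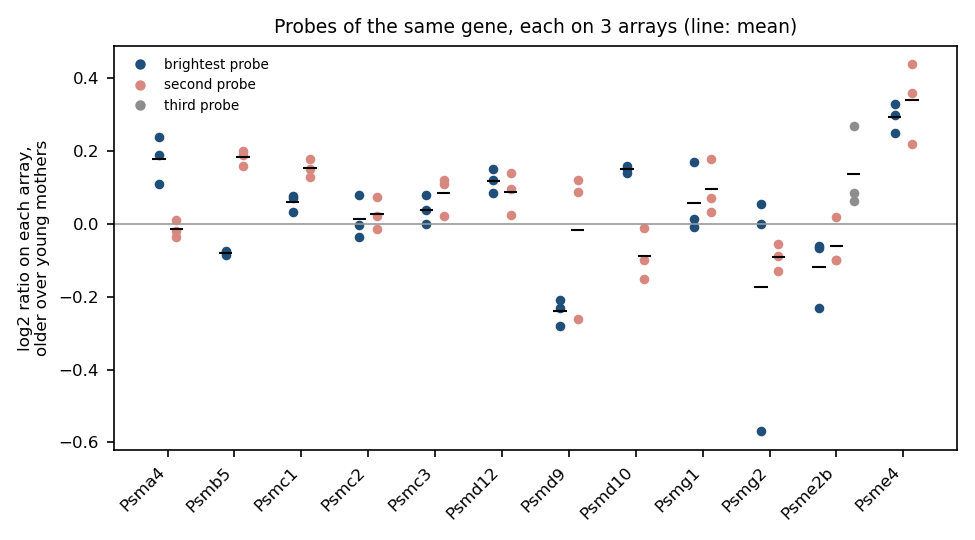
Log2 ratio of older over young mothers (y axis) on each of the 3 arrays (points) for every tested probe of the 12 genes with several probes (x axis); the short line is the mean and the colour the order of brightness. Both Psme4 probes lie above 0 on all arrays, while the Psmb5 probes lie on opposite sides at -0.079 and 0.19.

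Beside the constitutive subunits, Psmb8 and Psmb9, which replace the chymotrypsin-like and caspase-like subunits in the immunoproteasome, fell. Psmb8 read -0.68, -0.52 and -0.39, with a mean of -0.53 ± 0.14 (SD, n = 3; limma adjusted p = 0.0169), and was at 0.0522 without array 3. Psmb9 read -0.88, -0.72 and -0.56, with a mean of -0.72 ± 0.16 (SD, n = 3; limma adjusted p = 0.0139). Psmb10, which replaces the trypsin-like subunit, read -0.12, -0.027 and -0.081 and did not pass (limma adjusted p = 0.287). The counterparts Psmb5 and Psmb6 read -0.079 and -0.089 by their brightest probes. The 95% intervals did not overlap within either of these pairs. They were -0.70 to -0.36 for Psmb8 against -0.19 to 0.031 for Psmb5, and -0.90 to -0.55 for Psmb9 against -0.20 to 0.025 for Psmb6. In the third pair they did overlap, at -0.19 to 0.041 for Psmb10 and -0.16 to 0.061 for Psmb7. The second Psmb5 probe, on the other side of 0, had an interval of 0.074 to 0.30. The difference itself was not tested.

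Of 35 tested genes that work with the proteasome (partners, shuttles, ubiquitin genes and regulators, with the 3 immunoproteasome subunits), 4 passed higher and 4 lower, with a median of -0.016. That is 8 of 35, where 7.14% of all genes passed higher and 10.2% lower. Sem1, the smallest lid subunit, whose name the rule does not match, rose with 0.21, 0.16 and 0.21. Its mean was 0.19 ± 0.026 (SD, n = 3; limma adjusted p = 0.0443), and the call was lost by the scanner software's log ratio (0.113), with an offset of 16 (0.068) and without the filter (0.0568). Adrm1, a ubiquitin receptor of the base, had -0.031 ± 0.025 (SD, n = 3; limma adjusted p = 0.648). Pomp, the chaperone that matures the beta ring, had -0.026 ± 0.015 (SD, n = 3; limma adjusted p = 0.703). Nfe2l1, the factor that drives proteasome genes when the proteasome is impaired, had -0.0062 ± 0.011 (SD, n = 3; limma adjusted p = 0.931).

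Among the shuttles, Ubqln1 rose (mean 0.25 ± 0.062, SD, n = 3; limma adjusted p = 0.0314) and Nploc4, a cofactor of the unfoldase Vcp, fell, at -0.27 ± 0.028 (SD, n = 3; limma adjusted p = 0.0236). The ubiquitin-activating enzyme Uba6 was called higher at 0.29 ± 0.043 (SD, n = 3; limma adjusted p = 0.0222). It was at 0.11 without background correction (0.107), 0.20 by the scanner software's log ratio (0.164) and 0.15 averaged over its probes (0.0627), adjusted p in parentheses, and passed in none of these. Zfand5, a proteasome-binding zinc finger protein, had -0.23 ± 0.042 (SD, n = 3; limma adjusted p = 0.0318). Stat3, a transcription factor reported to act on beta subunit genes, rose with 0.25, 0.56 and 0.73. Its mean was 0.51 ± 0.25 (SD, n = 3; limma adjusted p = 0.0281). Each of these calls was lost without array 2 (limma adjusted p 0.185 for Sem1, 0.151 for Ubqln1, 0.116 for Nploc4, 0.0851 for Uba6, 0.163 for Zfand5 and 0.0682 for Stat3). By the scanner software's log ratio the calls of Ubqln1 (0.0604), Zfand5 (0.0617) and Stat3 (0.0702) were lost too, and that of Zfand5 also with an offset of 16 (0.052) and with its probes averaged (0.0589). All 6 calls were lost without array 3, and those of Sem1 (0.084) and Zfand5 (0.0604) without array 1.

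Direction also rested on how the dyes were balanced. The deposited values were balanced by a curve over intensity, after which the median ratio of all genes stayed between -0.067 and 0.012 in every decile of intensity. Balanced by 1 constant per array instead, the median of all genes was -0.43 and ran from 0.41 in the dimmest decile to -0.78 in the brightest. The constant set the median of all spots to 0, with controls and spots below background included. The median of the tested genes was therefore not fixed at 0. Proteasome probes were bright. Of the 44 genes, 31 lay in the 3 brightest deciles and 0 in the 3 dimmest. With the constant, 42 of 44 were called lower, where 67.1% of all genes were, and the core, set against all genes, was at -0.29, the base at -0.32 and the lid at -0.16.

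Values under the constant can be set against genes of similar intensity, a step that repeats what the curve does and so is no separate check. Under the constant, Psmd7 was at -0.38, which was 0.047 above the median of all genes and 0.31 above that of its own decile of intensity. Psmd11 was at -0.37, or 0.062 above all genes and 0.23 above its decile. Psme4 stayed above 0 at 0.019 without passing, 0.27 above its decile, and Psme3 was at -1.10, below its decile by a difference of -0.58. Psmd9 was at -0.65, a difference of -0.23 from its decile. The medians of the base and the lid thus had opposite signs under the 2 balances and that of the core was below 0 under both. The lid stood above the core and the base under either. Its genes were also dimmer, with a median intensity percentile of 85.7 against 91.5 for the core and 93.4 for the base. Dimmer genes lay higher under the constant, so the lid's place there is no separate check. The part of intensity in it was not tested.

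**Figure D4:**
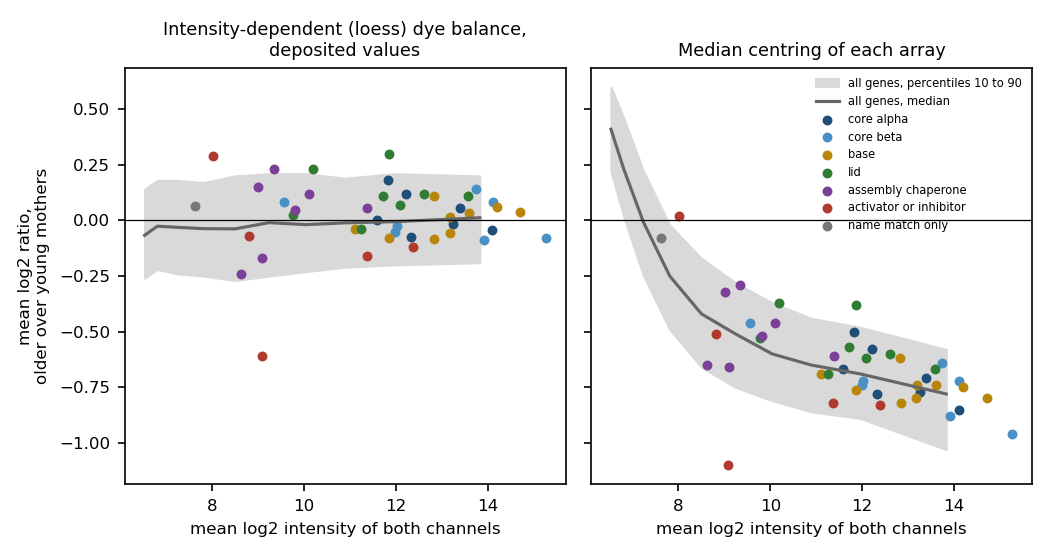
Mean log2 ratio of older over young mothers (y axis) against the mean log2 intensity of both dyes (x axis) for the 44 genes (points), with the median and the 10th to 90th percentiles of all genes by decile of intensity (line and band), for the deposited values (left) and for arrays balanced by a constant (right). The core and base genes sit at the bright end, where the line on the right falls to -0.78.

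Promoters were searched for 2 motifs linked to proteasome genes, in the bases from 250 before to 50 after the start of each gene in RefSeq (GRCm38.p6), on both strands. Of the 44 tested genes 37 had a promoter there. TGACNNNGC, the antioxidant response element bound by Nfe2l1, was found in 6 of 37 (16.2%), against 3781 of 27025 genes in all (14%). Genes with it had a median ratio of -0.059 and those without 0.045. In the core, the base and the assembly chaperones the genes with it also lay lower. In the lid (0.12 with, 0.071 without) and among the activators and inhibitor (0.29 with, -0.14 without) they lay higher. Each group had only 1 or 2 genes with the element, and no difference was tested. CCAAT, the box bound by NF-Y, was found in 13 of 37 (35.1%), against 41.1%, with medians of 0.025 with and 0.051 without it. The element and its flanks are printed, in capitals, for the 2 catalytic subunits and the 2 called genes that had it, with positions counted from the start of the gene.
Psmb5, from -47, chr14:54618024-54618052, minus strand: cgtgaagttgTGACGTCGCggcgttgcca
Psmb6, from -9, chr11:70525338-70525366, plus strand: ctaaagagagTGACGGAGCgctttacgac
Psmd9, from -31, chr5:123228149-123228177, plus strand: atctagccggTGACCCCGCccacttccaa
Psme4, from -7 on the opposite strand, chr11:30771758-30771786, minus strand: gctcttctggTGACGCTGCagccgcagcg
Psmb5 and Psmb6 did not pass the test by their brightest probes, and Psmd9 and Psme4 passed in opposite directions.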

How the data were processed

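RNA of 3 older-mother and 3 young-mother pools was compared on 3 two-colour arrays (Agilent design 026655), all on 1 slide. Scanner files, written by Agilent Feature Extraction 10.10.1.1 per the file headers, hold spot intensity values, a log10 ratio of Cy5 over Cy3, and flags of another (other) kind, 0 or 1. The authors deposited a table of log2 values, Cy3 over Cy5. How it was made is not given in the sources used here, but normexp with an offset of 50 and loess on the median signals returned it to within 5e-10. Its array medians were -0.0076, -0.00682 and -0.00799.

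The deposited log2 ratios were tested in limma 3.58.1 (R 4.3.3) with an intercept, lmFit and eBayes, two-sided, with 2 residual and 3.61 prior degrees of freedom. Benjamini-Hochberg adjustment ran over 27630 probes whose flag for signal above background was set on all arrays in at least 1 dye; 11798 were below it and 1 lacked a usable spot. Calls have an adjusted p under 0.05. A gene takes its brightest tested probe. The offset draws ratios of dim probes towards 0, and loess removes any difference shared by genes of 1 intensity. Symbols were checked against RefSeq (GRCm38.p6), which matched 28025 probes.

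Array values are given for genes that passed, for the highest and lowest of each group, the catalytic subunits, Psme1 and Psme2b, and fixed pathway genes; others were named after their values were seen. The members and the lists were chosen with earlier results of these data known. Both pools of an array form a pair, so the array is the block of the main test. Alternatives changed the background correction, dye balance, filter, variance model, pairing, probe summary and the arrays used. The scripts were tested on simulated data, with 100 probes changed by 0.3 and 100 by 0.6 log2 units. Of these 0 and 25 were called, with median estimates of 0.21 and 0.44, and 0 of 27430 unchanged probes were called. The simulated spread was shuffled among probes, so these shares need not hold for a given gene. A gene that did not pass may still differ between the groups.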

Additional observations from a re-analysis of the deposited data

How the results depend on the processing

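The count of proteasome genes higher in the older-mother pools, 3 in the main test, was 5 from mean signals, 5 without background correction, 6 with a variance trend and robust settings, and 0 with median centring; the count lower, 2, was 1 by the scanner software's log ratio, 1 when a gene's probes were averaged and 42 with median centring. In the unpaired fit, which drops the array as the block and treats the dyes as separate samples, 5 were higher and 2 lower. The genes added to the higher calls included core genes, with limma adjusted p in parentheses. Psma4 was added from mean signals (0.0482), without background correction (0.0431), with the variance trend (0.03) and unpaired (0.0455). Psmb3 was added with the variance trend (0.0286). Leaving out each array in turn gave 0 to 4 higher and 0 to 2 lower by limma; without array 2 only Psme3 was called (5 members at an unadjusted p under 0.05), and without array 3 no member was (6 at an unadjusted p under 0.05). The share of all features tested that were called moved as well, from 16.6% in the main test to 18.6% from mean signals, 9.48% by the scanner's log ratio, 23.8% without background correction, 20.8% with a variance trend, 18.2% unpaired, 16.8% with averaged probes, 84.0% with median centring, and 14.8%, 2.91% and 0.293% without arrays 1, 2 and 3. The same 3 and 2 genes were called with an offset of 16, without a filter and with both dyes above background. Medians under median centring were -0.72 for the core, -0.75 for the base and -0.58 for the lid; core minus base was then 0.031 and base minus lid -0.17. The base median was 0.028 from mean signals. Leaving out each array gave -0.043 to 0.034 for the core, -0.010 to 0.039 for the base, -0.17 to -0.065 for core minus lid and -0.13 to -0.060 for base minus lid.

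Median centring turned the sign of Psma4 (-0.50), Psmb3 (-0.64), the second Psmb5 probe (-0.57), Psmd2 (-0.62), Psmd7 (-0.38), Psmd10 (-0.32), Psmd11 (-0.37), Psmg4 (-0.29), Sem1 (-0.59), Stat3 (-0.13) and Ubqln1 (-0.36), when the median of all genes was itself -0.43. The mean over probes turned Psmb5 (0.053) and Pomp (0.011). Nfe2l1, near 0, turned to 0.017 from mean signals, 0.053 by the scanner's log ratio, 0.021 without background correction and 0.002 with an offset of 16, and Adrm1 to 0.019 by the scanner's log ratio. Psmg2 turned to 0.027 without array 1. Over the named genes and all alternatives, 336 values kept direction and side of the threshold, 49 lost the call, 23 gained it and 19 turned. The cause of these shifts was not tested. Cy3 was the weaker dye, and its part in the values of dim probes such as that of Psmc3ip was not tested.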
